A study of Mus musculus with 6 samples.

Results

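A set of 10 genes that build, fold and cap the sarcomere was followed through differentiation of C2C12 cells, a mouse myoblast line that fuses into multinucleated myotubes when serum is changed. They are Unc45b, Smyd1, Klhl40, Klhl41, Xirp1, Xirp2, Lmod2, Lmod3, Tmod1 and Tmod4, chosen by symbol from the 43074 gene symbols of the count table. All 10 were in the table and all 10 passed the filter on low counts, which kept 17433 genes. RNA sequencing covered 3 groups of 2 libraries, all of wild-type C2C12 cells and all of batch 1. Day 0 cells were untreated and in growth medium with fetal bovine serum. The DMSO group spent 4 days in differentiation medium with horse serum and the vehicle DMSO. The 4-PBA group spent the same 4 days in that medium with 4-phenylbutyric acid (4-PBA) at 1 mM, an aromatic fatty acid that inhibits histone deacetylases and acts as a chemical chaperone. The model is 1 immortal line, and day 0 differs from day 4 in medium as well as in time.

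The sarcomere is the contractile unit of striated muscle, in which thick filaments of myosin slide along thin filaments of actin. Unc45b is a chaperone that, with Hsp90, folds the myosin motor domain, and Smyd1 is a muscle methyltransferase that acts with that machinery. Klhl40 and Klhl41 are kelch proteins that serve as adaptors of cullin-3 ubiquitin ligases and stabilise thin-filament proteins such as nebulin and Lmod3. Xirp1 and Xirp2 are Xin actin-binding repeat proteins of cell junctions and of forming or damaged myofibrils. Leiomodins (Lmod2, Lmod3) promote actin assembly at the pointed end of the thin filament, and tropomodulins (Tmod1, Tmod4) cap that end. Loss of KLHL40, KLHL41 or LMOD3 causes nemaline myopathy.

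Total counts per library ranged from 47908926 to 74697397. Counts of replicates varied beyond sampling noise (chi-square over its degrees of freedom 3.98 to 7.15). Levels are given as CPM, counts scaled to the library total after TMM normalisation for composition. The tests came from edgeR's quasi-likelihood fit over all 6 libraries, with Benjamini-Hochberg adjustment over all 17433 genes, and a gene was called at an adjusted p under 0.05. Whether the replicates came from different cultures is not in the labels, so p-values rest on the spread between these libraries, which may be technical. That spread is mostly shared across genes: each gene's own 3 residual degrees of freedom were combined with a median of 30.4 prior ones from all genes. Exact permutation of 2 against 2 libraries cannot give a p below 0.333. Summed markers of myotubes (9 genes, all tested) rose from 297 to 303 CPM at day 0 to 7021 to 7923 CPM at day 4, and summed markers of proliferating myoblasts (8 genes) went from 2071 to 2117 CPM down to 566 to 707 CPM. All 6 adipocyte markers stayed under 1 CPM in every library, as did 4 of 5 macrophage, 5 of 6 osteoblast or chondrocyte and 3 of 4 endothelial markers. Cardiomyocyte markers summed to 5.31 to 6.46 CPM at day 0 and 537 to 582 CPM at day 4, nearly all from Myl4, while Myl7 had no counts. Smooth muscle markers summed to 1121 to 3231 CPM, mostly Acta2.

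Which of these genes changed as myoblasts differentiated was read from the DMSO group against day 0. Of the 10 genes, 9 rose, by 2.86-fold (Xirp1) to 88.7-fold (Lmod2), and Tmod4 alone fell, a call that was lost without DMSO replicate 2 or without day 0 replicate 2. Their median log2 fold change was 3.94, and that of all tested genes was 0.02. Of all tested genes, 33.8% were called higher and 32.6% lower in this comparison, so a call by itself was common and the size of the change carries the description. Likewise 42.0% of all tested genes had both DMSO libraries above both day 0 libraries, and 39.9% had both below. In bulk RNA, fewer cells of a type and less RNA per cell cannot be told apart. The plot of member levels by library shows each gene in the 6 libraries.

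**Figure D1:**
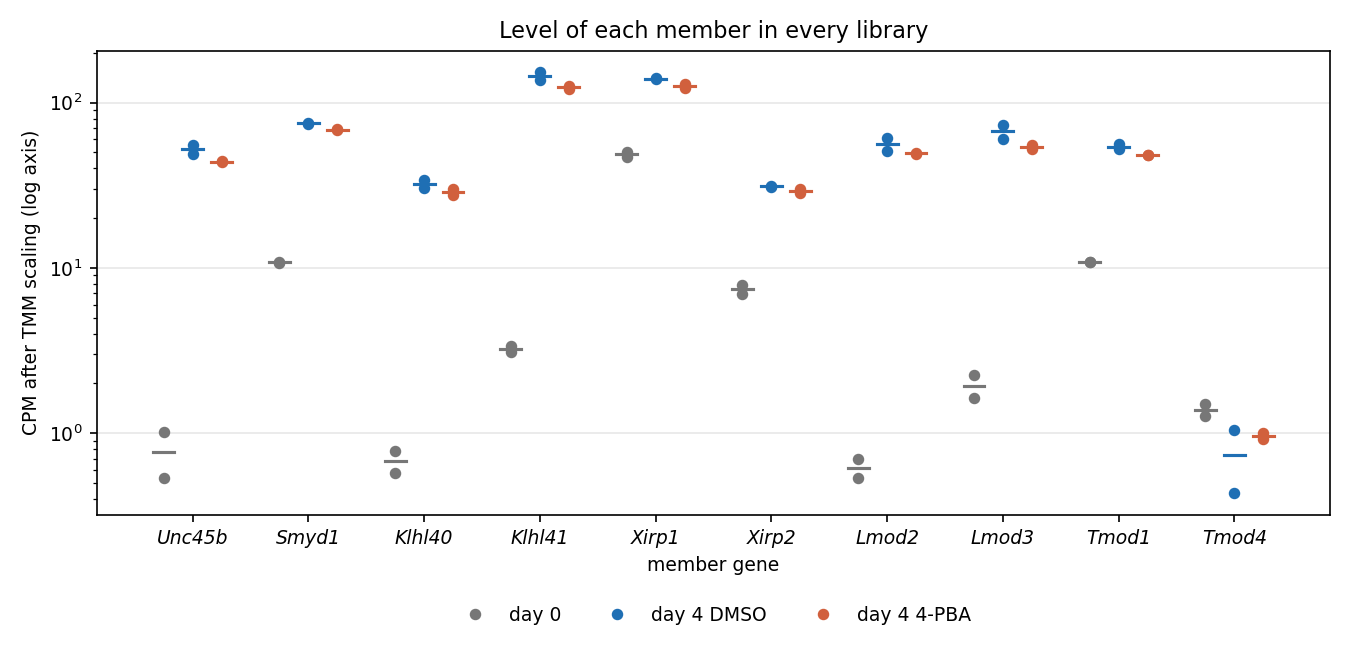
Level of each of the 10 genes in every library (CPM, log axis), with 2 points per group for day 0, DMSO at day 4 and 4-PBA at day 4. For 9 genes both day 0 points lie below all 4 day 4 points, while Tmod4 stays between 0.431 and 1.5 CPM throughout.

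Promoters are shown where CAGCTG or a MEF2 site was matched (Klhl41, Klhl40 and Xirp2) and for the tropomodulins, of which Tmod1 rose and Tmod4 did not. RefSeq promoters on GRCm38.p6 were found for 8 of the 10 genes, and Xirp1 and Lmod3 had none in the table used. In the 250 bases before each start, both strands were searched for the E-box CANNTG, bound by myogenic basic helix-loop-helix factors, its form CAGCTG, the MEF2 site, the CArG box of serum response factor and the MCAT element CATTCC of TEAD factors. Every CAGCTG match is also a CANNTG match. An E-box was found in 6 of 8 promoters, against 66.2% of 32851 promoters of the same length. CAGCTG was in 2 of 8 (13.0% of all), a MEF2 site in 2 of 8 (2.92%), CATTCC in 1 of 8 (12.6%) and a CArG box in 0 of 8 (1.47%). Of the promoters not shown, that of Unc45b held 2 E-boxes and that of Lmod2 held 1. Neither held CAGCTG or a MEF2 site, although these 2 genes had the largest rises. That of Smyd1, which also rose, held no match at all. A match describes letters in the window and shows no binding.

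Among the myosin-folding factors, Unc45b rose from a low level at day 0. It stood at 0.535 and 1.01 CPM at day 0 (26 and 71 counts) and at 48.9 and 55.5 CPM with DMSO. The 4-PBA libraries had 43.9 and 44.1 CPM. Both day 0 libraries lay far below all day 4 libraries. The rise with DMSO was 6.0 on the log2 scale (SE 0.13, adjusted p = 4.83e-19), or 64.0-fold. Smyd1 was already present in myoblasts, at 10.9 and 10.8 CPM, and reached 75.4 and 74.3 CPM with DMSO. Its replicates were almost equal and the groups did not overlap. The rise was 2.79 (SE 0.054, adjusted p = 3.71e-31), or 6.91-fold.

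The kelch genes rose by nearly the same factor from different levels. Klhl40 stood at 0.576 and 0.783 CPM at day 0 (28 and 55 counts) and at 30.5 and 33.8 CPM with DMSO. Klhl41 stood at 3.37 and 3.11 CPM at day 0 and at 136 and 154 CPM with DMSO. For both genes every day 4 library exceeded every day 0 library. The log2 changes were 5.52 (SE 0.12, adjusted p = 1.06e-29) for Klhl40 and 5.49 (SE 0.069, adjusted p = 1.31e-27) for Klhl41, which is 46.0-fold and 45-fold. Their promoters (Klhl41 at chr2:69669870-69670119, plus strand, and Klhl40 at chr9:121777357-121777606, plus strand, GRCm38.p6) were the ones with CAGCTG, and that of Klhl41 also held a MEF2 match whose last base lies 54 bases before the start. They are printed 5′ to 3′, with E-boxes (6 letters) and the MEF2 match (10 letters) in capitals.
Klhl41: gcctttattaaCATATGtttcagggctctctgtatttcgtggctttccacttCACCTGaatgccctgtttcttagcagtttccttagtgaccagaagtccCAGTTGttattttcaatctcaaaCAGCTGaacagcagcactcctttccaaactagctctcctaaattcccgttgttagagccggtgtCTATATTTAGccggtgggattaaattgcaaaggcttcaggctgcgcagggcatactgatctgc
Klhl40: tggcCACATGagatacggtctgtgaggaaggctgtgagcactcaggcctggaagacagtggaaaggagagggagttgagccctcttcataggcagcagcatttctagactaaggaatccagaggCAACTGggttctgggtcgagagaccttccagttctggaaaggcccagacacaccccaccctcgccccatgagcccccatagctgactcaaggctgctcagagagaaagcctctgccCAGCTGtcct
Klhl41 has 4 E-boxes and Klhl40 has 3, the last of them 5 bases before the start.

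The Xin genes had the smallest rises of the 9. Xirp1 stood at 47.0 and 50.5 CPM at day 0 and at 140 and 139 CPM with DMSO. Xirp2 stood at 6.95 and 7.86 CPM at day 0 and at 31.0 and 31.4 CPM with DMSO. Neither gene's groups overlapped, and replicates were close at day 4. Xirp1 rose by 1.52 (SE 0.042, adjusted p = 2.07e-26), or 2.86-fold, and Xirp2 by 2.06 (SE 0.076, adjusted p = 6.38e-23), or 4.18-fold. The Xirp2 promoter (chr2:67445752-67446001, plus strand, GRCm38.p6) is shown because it held the other MEF2 match, 65 bases before the start, with E-boxes that overlap each other in the run CACATGTG.
Xirp2: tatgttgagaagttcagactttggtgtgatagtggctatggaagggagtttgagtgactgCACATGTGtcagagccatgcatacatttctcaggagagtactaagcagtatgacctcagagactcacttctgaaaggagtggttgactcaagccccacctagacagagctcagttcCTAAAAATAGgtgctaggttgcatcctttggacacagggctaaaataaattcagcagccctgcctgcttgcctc
Capitals mark the E-boxes and the MEF2 match, which do not overlap.

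At the thin filament's pointed end, both leiomodins and Tmod1 rose while Tmod4 did not. Lmod2 stood at 0.535 and 0.698 CPM at day 0 (26 and 49 counts) and at 50.8 and 61.2 CPM with DMSO. Lmod3 stood at 1.63 and 2.24 CPM at day 0 and at 60.5 and 73.7 CPM with DMSO. Both groups were separate, and the second DMSO library was the higher one for each gene. Lmod2 rose by 6.47 (SE 0.13, adjusted p = 1.04e-19), the largest change of the 10, and Lmod3 by 5.08 (SE 0.16, adjusted p = 3.94e-08), or 33.9-fold. Tmod1 stood at 10.9 and 10.9 CPM at day 0 and at 52.6 and 55.9 CPM with DMSO, a rise of 2.32 (SE 0.06, adjusted p = 1.51e-27), or 4.99-fold. The groups did not overlap. Exons of Tmod1, over all its transcripts in GENCODE M21, overlap those of Tstd2 on the opposite strand by 1287 bases. The 1 transcript used for the length of Tmod1 has 3158 bases, and its own share of the overlap was not computed. Tstd2 had 2136 to 2985 counts in every library, and whether counting used strand is not given in the sources used here. Without strand, reads of the 2 genes that lie within the overlap cannot be told apart.

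Tmod4, a tropomodulin of adult skeletal muscle, was low in every library. It had 62 and 105 counts at day 0 (1.28 and 1.5 CPM), 66 and 32 counts with DMSO (1.05 and 0.431 CPM), and 62 and 57 counts with 4-PBA (0.999 and 0.918 CPM). Every day 4 library lay below both day 0 libraries, and the DMSO replicates differed most. The fall with DMSO was called (log2 change −0.94, SE 0.32, adjusted p = 0.0101). Without DMSO replicate 2 it was −0.41 (adjusted p = 0.300), without day 0 replicate 2 it was −0.81 (adjusted p = 0.0910), and without DMSO replicate 1 it was −1.69. The neighbouring genes Vps72, Scnm1 and Lysmd1 had 2950 to 4275, 640 to 1094 and 353 to 706 counts. The 2 tropomodulin promoters are printed because Tmod1 rose and Tmod4 did not (Tmod1 at chr4:46038972-46039221, plus strand, and Tmod4 at chr3:95124264-95124513, plus strand, GRCm38.p6).
Tmod1: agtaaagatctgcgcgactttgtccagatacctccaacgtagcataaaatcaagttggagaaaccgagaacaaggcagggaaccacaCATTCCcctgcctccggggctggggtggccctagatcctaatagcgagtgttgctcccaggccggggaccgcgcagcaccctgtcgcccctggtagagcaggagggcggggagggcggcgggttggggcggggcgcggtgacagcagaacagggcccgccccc
Tmod4: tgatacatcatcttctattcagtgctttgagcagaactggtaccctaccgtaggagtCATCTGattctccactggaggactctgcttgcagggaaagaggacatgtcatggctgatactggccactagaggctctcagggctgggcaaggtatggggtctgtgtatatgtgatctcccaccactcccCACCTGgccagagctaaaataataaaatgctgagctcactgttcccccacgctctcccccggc
Capitals mark the CATTCC match in Tmod1, which had no E-box, and 2 E-boxes in Tmod4. The GC content of the 250 bases was 64.0% in Tmod1 and 52.4% in Tmod4.

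The closest relatives of these genes outside the set did not move as a block. Of 10 near paralogs, 3 were called higher, 5 lower and 2 were not called in DMSO against day 0, with a median log2 change of −0.32. Klhl31, a kelch protein of skeletal muscle, rose by 3.55 (adjusted p = 1.58e-25) from 1.89 and 1.81 CPM to 20.4 and 22.8 CPM. Klhl30 rose by 1.21 and Lmod1, the smooth muscle leiomodin, by 0.91. Unc45a, the general-cell form of Unc45, fell by 0.35 (adjusted p = 5.39e-07) from 46.3 and 47.1 CPM to 38.0 and 35.1 CPM. Tmod3, the widely expressed tropomodulin, fell by 0.29, and Smyd4, Smyd5 and Smyd2 fell by 1.08, 0.62 and 0.45. Smyd3 (−0.01, adjusted p = 0.895) and Tmod2 (−0.43, adjusted p = 0.455) did not pass the test.

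**Figure D2:**
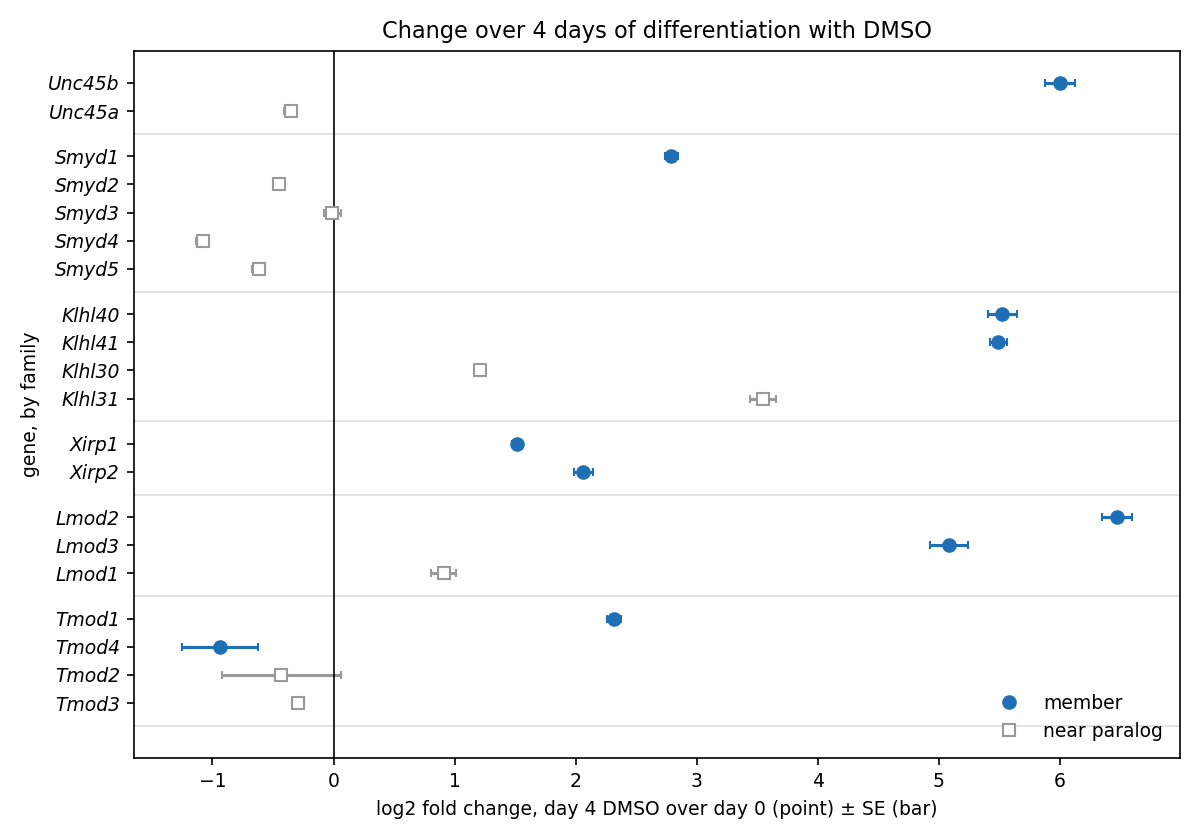
Log2 fold change of DMSO at day 4 against day 0, with SE bars, for the 10 genes (filled circles) and their near paralogs (open squares), grouped by family. Unc45b lies at 6.0 beside Unc45a at −0.35, and Tmod1 at 2.32 is the only tropomodulin above 0.

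The families changed in composition, read here as log2 ratios per transcript length, with no test. Unc45b to Unc45a went from −6.63 and −5.73 at day 0 to 0.17 and 0.47 with DMSO, and was 0.05 and −0.07 with 4-PBA. The muscle form thus went from 98.8-fold and 53.2-fold below the general form to about its level. Tmod4 to Tmod1 went from −1.77 and −1.53 to −4.33 and −5.69 with DMSO, and was −4.28 and −4.39 with 4-PBA. Lmod2 to Lmod3 went from −1.44 and −1.52 to −0.09 and −0.10, so that Lmod2 came to the level of Lmod3. The Xirp1 to Xirp2 ratio narrowed from 3.79 and 3.72 to 3.21 and 3.18. Klhl40 to Klhl41 was −2.46 and −1.89 at day 0 and −2.07 and −2.09 with DMSO, within the spread of day 0. Use of coding length shifts all 6 values of a pair equally.

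**Figure D3:**
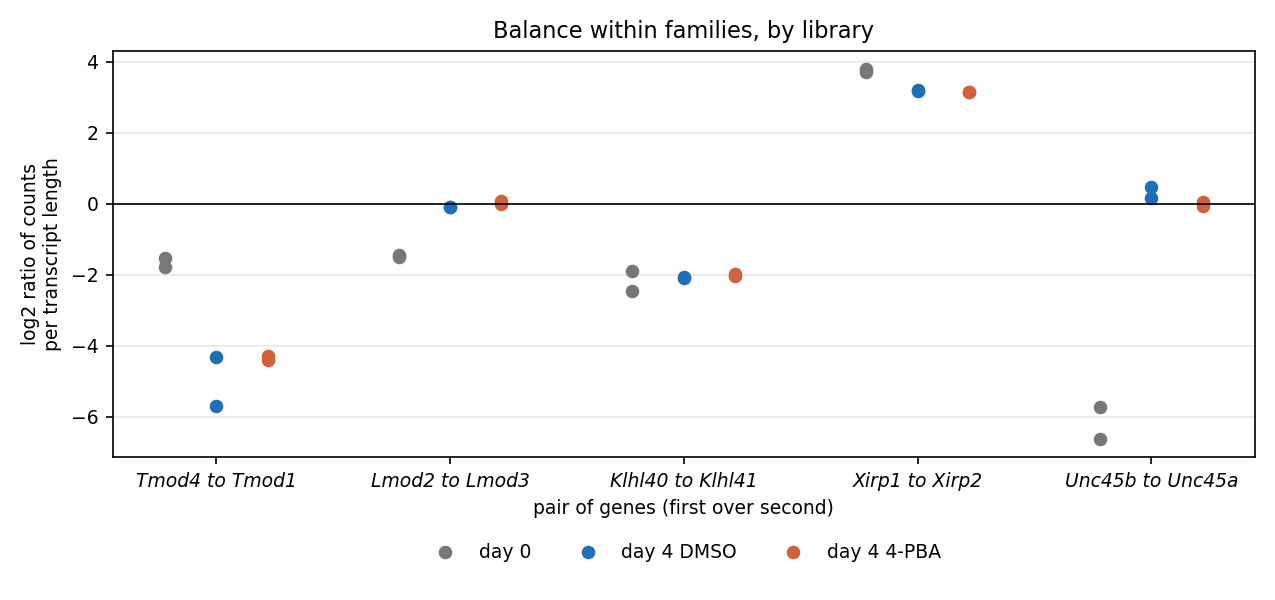
Log2 ratio of 5 gene pairs per transcript length in each library (points, 2 per group). Day 0 and day 4 points are apart for every pair except Klhl40 to Klhl41, and the Unc45b to Unc45a ratio crosses 0.

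Levels of different genes were compared as FPKM, counts scaled to transcript length and library total. At day 0 the order of mean levels was Xirp1 (8.35), Tmod1 (3.45), Smyd1 (3.22), Klhl41 (1.28), Tmod4 (1.10), Lmod3 (0.872), Xirp2 (0.620), Lmod2 (0.312), Klhl40 (0.287) and Unc45b (0.186). Lmod2 and Klhl40 overlapped, as did Klhl40 and Unc45b. With DMSO the order was Klhl41 (57.3), Lmod3 (30.3), Lmod2 (28.3), Xirp1 (23.9), Smyd1 (22.3), Tmod1 (17.2), Klhl40 (13.6), Unc45b (12.6), Xirp2 (2.61) and Tmod4 (0.586). Lmod3 and Lmod2 overlapped, as did Klhl40 and Unc45b. Klhl41 thus went from the fourth place to the first, and Tmod4 from the fifth to the last. Per coding length, Smyd1 and Tmod1 held ranks 2 and 3 at day 4, above Xirp1 and both leiomodins, so the middle of the order depends on the length used. With 4-PBA, Klhl41 was also the first at 48.9 FPKM and Tmod4 the last at 0.761 FPKM, and of neighbours in the order only Lmod2 (25) and Lmod3 (24.4) overlapped.

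Whether 4-PBA altered these genes was read from the 4-PBA group against DMSO at day 4. Klhl41 and Xirp1 fell, and the other 8 genes did not pass the test. The share of all tested genes called lower was 2.78%, and 2.13% were called higher. All changes were small: the median log2 change was −0.16 for the 10 genes and 0.00 (0.00205) for all tested genes. Of the 10 estimates, 9 were negative. For the same 9 both 4-PBA libraries lay below both DMSO libraries, which held for 22.5% of all tested genes, and 23.0% had both above. At an unadjusted p under 0.05, 8 of the 10 were lower, against 8.54% of all tested genes, and 0 were higher, against 8.15%. The 9 genes with negative estimates are those that rose during differentiation. They are expressed together at day 4 and are not independent of each other, while Tmod4 was low in every library.

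Klhl41 measured 136 and 154 CPM with DMSO against 121 and 126 CPM with 4-PBA (means 145 ± 12.3 and 124 ± 3.59, SD, n = 2). The groups did not overlap, and the DMSO replicates lay further apart than the 4-PBA replicates. It fell by 14.6% (log2 change −0.23, SE 0.046, adjusted p = 0.00311 by edgeR's quasi-likelihood test). Xirp1 measured 140 and 139 CPM with DMSO against 122 and 130 CPM with 4-PBA (140 ± 0.826 and 126 ± 5.79, SD, n = 2). Here the 4-PBA replicates were the wider apart. It fell by 9.77% (log2 change −0.15, SE 0.039, adjusted p = 0.0184 by edgeR). Both calls were lost without 4-PBA replicate 1, with Klhl41 at −0.20 (adjusted p = 0.0893) and Xirp1 at −0.10 (adjusted p = 0.406). Klhl41 was −0.14 (adjusted p = 0.0467) without DMSO replicate 2.

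Among the genes that did not pass, Lmod3 had the lowest estimate. It measured 60.5 and 73.7 CPM with DMSO against 52.6 and 55.7 CPM with 4-PBA. The groups were separate, but the DMSO replicates differed by more than the gap between groups. The log2 difference was −0.31 (SE 0.10, adjusted p = 0.173 by edgeR), with a 95% interval of −0.55 to −0.07. That adjusted p depended on the setting. By edgeR it was 2.21e-07 with no filter beyond 1 count and 0.00108 with replicate number as a block. It was 0.460 by DESeq2 and 0.229 by limma-voom. Unc45b, at 48.9 and 55.5 against 43.9 and 44.1 CPM, differed by −0.25 (SE 0.072, adjusted p = 0.0533, interval −0.40 to −0.10). Tmod1, at 52.6 and 55.9 against 48.5 and 48.4 CPM, differed by −0.16 (SE 0.051, adjusted p = 0.0552, interval −0.27 to −0.06). Both depended on the tool: DESeq2 gave an adjusted p of 0.670 for Unc45b and 0.122 for Tmod1, and limma-voom 0.00595 and 0.0267. Of 15 alternatives, 8 called Unc45b and 5 called Tmod1. The same interval was −0.33 to −0.04 for Lmod2, −0.30 to −0.01 for Klhl40, −0.22 to −0.03 for Smyd1 and −0.23 to 0.04 for Xirp2. In CPM, Lmod2 measured 49.8 and 49.1 with 4-PBA, Klhl40 27.7 and 30.1, Smyd1 69.3 and 67.9, and Xirp2 28.3 and 30.1. Each of these 4 genes had both 4-PBA libraries under both DMSO libraries. Tmod4 was the exception, with overlapping libraries, a difference of 0.40 and an interval of −0.27 to 1.06.

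Replicate 2 was the higher of its group for 7 of the 10 genes with DMSO, 7 at day 0 and 6 with 4-PBA. The sizes above moved with DMSO replicate 2. Without it, Lmod2 was at −0.04, Unc45b at −0.15, Lmod3 at −0.16 and Tmod4 at −0.12, where the sign turned. Without DMSO replicate 1, Lmod2 was at −0.31, Unc45b at −0.34, Lmod3 at −0.45 and Tmod4 at 1.15. Without day 0 replicate 1 or day 0 replicate 2, Unc45b stayed at −0.25 and Lmod3 at −0.31. Without 4-PBA replicate 1, Klhl41 was at −0.20 and Xirp1 at −0.10. Marker sums also differed: summed myotube markers were 7521 and 7923 CPM with DMSO against 7021 and 7161 CPM with 4-PBA, with 3 of 9 called lower. Of these 9 estimates, 6 were negative and 3 positive, among them Myh3 (0.02) and Myh8 (0.21). Ttn, the largest gene in the sum, was at −0.28 (adjusted p = 1.28e-08 by edgeR). Summed proliferating-myoblast markers were 654 and 566 CPM with DMSO against 696 and 707 CPM with 4-PBA, with 2 of 8 called higher. DMSO replicate 2 thus had the highest myotube sum and the lowest proliferation sum. Without DMSO replicate 1 the proliferation count was 7, and without either 4-PBA replicate it was 1, as was the myotube count. Summed smooth muscle markers were 3092 and 2873 CPM with DMSO against 3231 and 3211 CPM with 4-PBA, with 4 of 5 higher in both 4-PBA libraries and 1 called, Tagln (0.24, adjusted p = 0.00769). Summed cardiomyocyte markers were 565 and 582 CPM against 537 and 563 CPM, with 1 of the 3 tested called, Myh6 (−0.48, adjusted p = 0.00815). Without 4-PBA replicate 1 neither was called (adjusted p = 0.0568 for Tagln and 0.197 for Myh6). The part of these marker differences in the values of the 10 genes was not tested.

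**Figure D4:**
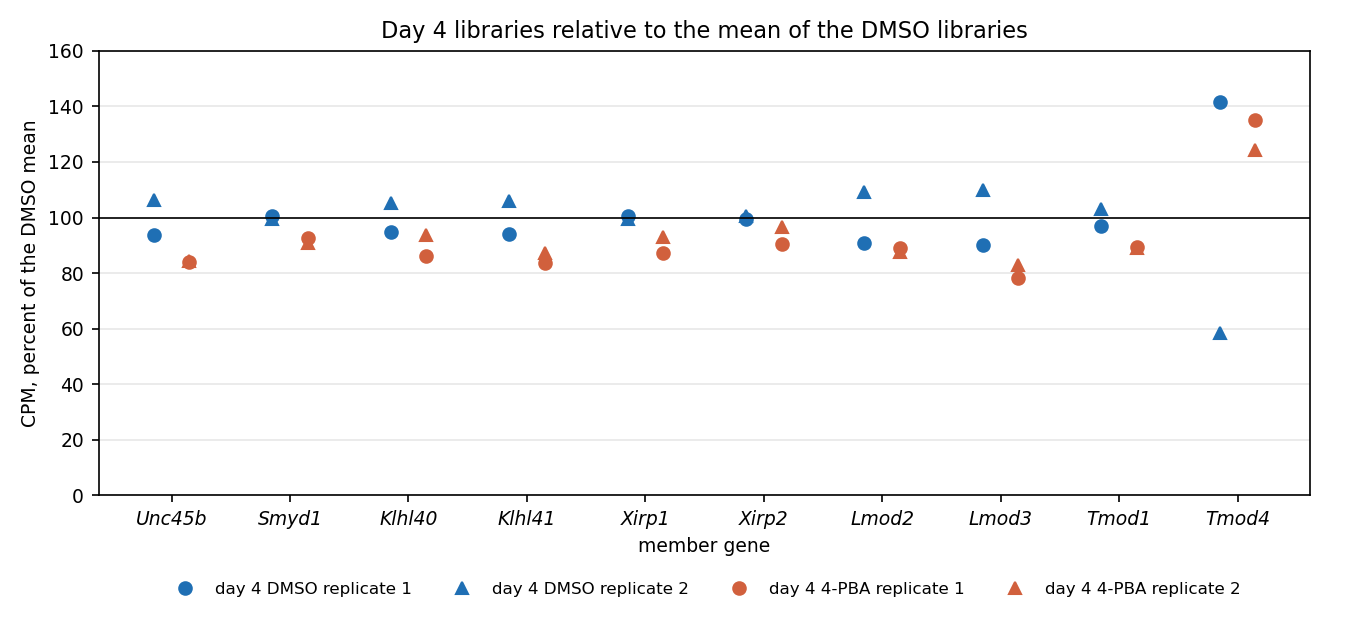
Each day 4 library as a percentage of the DMSO mean of its gene (axis from 0 to 160%, circles replicate 1, triangles replicate 2). For 9 genes both 4-PBA points lie below both DMSO points, while the Tmod4 points overlap.

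Of the 10 near paralogs, 0 were called between 4-PBA and DMSO by edgeR or DESeq2 and 1 by limma-voom, with 1 higher and 4 lower at an unadjusted p under 0.05. Klhl31 came nearest, at 18.4 and 17.9 CPM with 4-PBA, a difference of −0.25 (adjusted p = 0.0517). Without DMSO replicate 1 or DMSO replicate 2, 2 near paralogs were called.

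Against day 0, the 4-PBA group showed the same 9 genes higher and none called lower, also with DESeq2, limma-voom or an unadjusted p under 0.05. Of all tested genes, 33.2% were called higher and 32.4% lower. This comparison shares its day 0 libraries with the one above and its 4-PBA libraries with the contrast at day 4, so the values are set side by side only. Unc45b rose by 5.75 with 4-PBA and 6.0 with DMSO, Smyd1 by 2.66 and 2.79, Klhl40 by 5.37 and 5.52, and Klhl41 by 5.26 and 5.49. Xirp1 rose by 1.37 and 1.52, Xirp2 by 1.97 and 2.06, Lmod2 by 6.29 and 6.47, Lmod3 by 4.77 and 5.08, and Tmod1 by 2.16 and 2.32. Tmod4 was at −0.54 (adjusted p = 0.128) with 4-PBA and was not called.

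Most of the chaperones and co-chaperones listed beside Unc45b fell during differentiation. Of these 12, 2 rose, 9 fell and 1 was not called, with a median of −0.59. The list is broad, and work with Unc45b was not tested for any of the 12. Hsp90aa1, the inducible Hsp90 and partner of Unc45b, fell by 0.82 from 1487 and 1531 CPM to 854 and 854 CPM. Hsp90ab1 fell by 0.47. The constitutive Hsp70 Hspa8 and the co-chaperones Stip1 and Ptges3 fell by 0.66, 0.68 and 0.68. Dnajb6 and Bag3 rose, by 0.22 and 0.08. All 12 thick-filament and M-band genes listed, for 6 myosin heavy chains, myosin-binding proteins and myomesins, rose, with a median of 5.99. Between 4-PBA and DMSO 0 of 12 chaperones were called by edgeR, DESeq2 or limma-voom (1 at an unadjusted p under 0.05, and 1 called without DMSO replicate 1). The smallest adjusted p belonged to Cryab (0.08, adjusted p = 0.175), Stip1 (0.05) and Ptges3 (−0.05). Of the 12 thick-filament and M-band genes, 5 were called lower with 4-PBA: Myh1 and Myh7 of the 6 heavy chains, and Mybph (−0.16), Myom1 (−0.17) and Myom2. Myh7, the slow myosin heavy chain, fell by 0.45 (adjusted p = 6.07e-06) from 47.6 and 46.6 CPM (DMSO) to 33.1 and 35.9 CPM. Myh1 fell by 0.28 (adjusted p = 0.000152) and Myom2, an M-band protein, by 0.22 (adjusted p = 0.000123). Myh8, the perinatal heavy chain, was at 0.21 and not called (adjusted p = 0.102). Without DMSO replicate 2 or without either 4-PBA replicate, Mybph and Myom1 were not called, and without either 4-PBA replicate the count was 3 of 12. Myh8 was called higher without DMSO replicate 2 or either day 0 replicate.

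Thin-filament proteins, on which leiomodins, tropomodulins and the kelch proteins act, rose with the 9 genes. Of 14, 12 rose, Tpm3 fell and Nebl was not called in DMSO against day 0, with a median of 5.38. With 4-PBA against DMSO 5 were lower, Tpm1 was higher (0.12, not called without either 4-PBA replicate) and 8 were not called, with a median of −0.08. Neb, the nebulin ruler of the thin filament, measured 456 and 489 CPM with DMSO against 359 and 364 CPM with 4-PBA. Those groups did not overlap, and the fall was 0.39 (SE 0.035, adjusted p = 1.94e-08). Actc1, cardiac alpha-actin, fell by 0.22 (adjusted p = 1.64e-05) and Tnnt1, slow troponin T, by 0.25 (adjusted p = 0.000216). The number called was 10 without DMSO replicate 1 and 3 without 4-PBA replicate 1. Other actin regulators were divided: of 12 capping, severing and nucleating genes, 6 rose and 5 fell during differentiation (median 0.09). Cap2 rose by 4.84, Cobl by 1.61 and Fhod3 by 0.97, while Fhod1 fell by 0.87. Between 4-PBA and DMSO 0 of them were called by edgeR, DESeq2 or limma-voom (1 at an unadjusted p under 0.05), and Cobl was at −0.12 (adjusted p = 0.0857), Fhod3 at 0.08 and Cap2 at −0.16, which ranged from −0.28 without DMSO replicate 1 to −0.0152 without DMSO replicate 2. Without DMSO replicate 1, 1 was called.

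Genes for the partners of Xin proteins at junctions and Z-discs mostly rose: 10 of 11 rose and Ctnnb1, beta-catenin, fell by 0.10 (median 0.92). With 4-PBA against DMSO 4 were lower and 1 was higher. Ldb3, a Z-disc protein, fell by 0.27 (adjusted p = 4.29e-05), from 133 and 140 CPM to 116 and 110 CPM. Nrap, which links actin to forming myofibrils and is also among the 14 thin-filament genes, fell by 0.24 (adjusted p = 0.0017). That call was lost without 4-PBA replicate 1 (adjusted p = 0.145). Cdh15, M-cadherin, rose by 0.11 (adjusted p = 0.0171), a call lost without DMSO replicate 2 or without either 4-PBA replicate. The number called in this list was 3 without day 0 replicate 1, day 0 replicate 2 or DMSO replicate 2. It was 1 when 4-PBA replicate 1 was left out and 2 when 4-PBA replicate 2 was.

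Of 10 muscle ubiquitin ligase genes, related to the kelch adaptors by their pathway, 9 were tested and Kbtbd13 had 6 counts in 1 library. During differentiation 5 rose, Rbx1 fell and 3 were not called (median 0.90). With 4-PBA against DMSO 3 were lower. Trim63, the ligase MuRF1, fell by 0.37 (adjusted p = 0.0107), from 15.6 and 16.9 CPM to 13.1 and 12.1 CPM. Trim54 fell by 0.22 (adjusted p = 0.0346) and Kbtbd12 by 0.55 (adjusted p = 0.0398). Without DMSO replicate 2 none of these 3 was called and 1 gene of the list was called higher, and without 4-PBA replicate 2 the count was 0.

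The genes with the pattern most like the mean centred profile of the 10 were named by Euclidean distance of log2 CPM over the 6 libraries. They were Myl6b (0.174), Cmklr1 (0.176), Plxdc2 (0.182), Igdcc4 (0.188) and Casz1 (0.201). Myl6b, an alkali myosin light chain, went from 10.7 and 12.2 CPM to 148 and 159 CPM with DMSO and measured 127 and 141 CPM with 4-PBA. The 10 genes themselves lay 1.00 (Smyd1) to 5.11 (Tmod4) from their own mean, so the mean describes none of them closely.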

How the data were processed

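The deposited table holds raw counts per gene symbol, 1 column per library, per the file headers; the authors neither normalised nor pooled these counts in it. Libraries were directional, from DNase-treated total RNA, per the labels' protocols. The build was GRCm39, per the submitters' processing notes. Aligner, counter, annotation and strand setting are not given in the sources used here.

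Counts were analysed in R 4.3.3 with edgeR 4.0.16: filterByExpr, TMM, 1 mean per group over 6 libraries, robust quasi-likelihood F tests with 3 residual degrees of freedom (median prior 30.4), and Benjamini-Hochberg adjustment over 17433 genes. The common biological coefficient of variation was 3.74%. SE is the log2 change divided by the square root of F. Alternatives used limma 3.58.1 and DESeq2 1.42.0, other filters, scalings and thresholds, a replicate block and left-out libraries. The code was tested on simulated data. Lengths and overlaps came from GENCODE M21 (GRCm38) and promoters from RefSeq (GRCm38.p6). Figures used Python 3.11.15 and matplotlib 3.10.9.

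The 10 genes and all lists were chosen with earlier results of these data known. Named are the 10 genes, their near paralogs, the 3 genes of each pathway list with the smallest adjusted p between 4-PBA and DMSO, and the 5 genes most alike in pattern. Other genes are named to complete a count. They were chosen after their values were seen.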

Additional observations from a re-analysis of the deposited data

How the results depend on the processing

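Against day 0, 9 to 10 of the 10 genes were called with DMSO and 9 with 4-PBA under each alternative run. Between 4-PBA and DMSO the count of 2 was 6 with no filter beyond 1 count, 4 with limma-voom, 4 with only the 4 libraries compared, 4 after thinning all libraries to the smallest total, 1 at an adjusted p under 0.01 and 0 at 2-fold or more. It ranged from 0 to 6 when each library was left out. With the replicate number as a replicate block it was 4 (Unc45b, Klhl41, Xirp1, Lmod3). Same-numbered libraries did not deviate together (correlations −0.03, −0.00306 and −0.01), and the labels tie the numbers to nothing shared. Thinning, coding length for gene levels, the counts of genes beside Tmod4 and the alternatives for Tagln, Myh6, Myh8, Mybph, Myom1 and Tpm1 were chosen after seeing the data.

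Over all tested genes, 855 were called between 4-PBA and DMSO, 341 without 4-PBA replicate 1, 295 without 4-PBA replicate 2, 424 at an adjusted p under 0.01 and 12 at 2-fold or more. At 2-fold or more, 3825 genes were called with DMSO and 3699 with 4-PBA against day 0. With library size only, 461 were higher and 435 lower, against 371 and 484. Another scaling moved the median of all genes by at most 0.03 (log2).

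Signs turned for these estimates, none of which was called. Smyd3 with DMSO against day 0 was 0.0061 with the stricter filter and ranged from −0.0801 to 0.052 over left-out libraries, above 0 without day 0 replicate 1 or DMSO replicate 1. Tmod2 ranged from −0.94 to 0.22 (above 0 without day 0 replicate 1) with DMSO against day 0. With 4-PBA against day 0 it ranged from −0.13 (without day 0 replicate 2) to 1.02. Between 4-PBA and DMSO, Tmod4 ranged from −0.12 (without DMSO replicate 2) to 1.15, and Smyd2 from −0.048 to 0.056, below 0 without DMSO replicate 2 or 4-PBA replicate 2. The cause was not tested. Tmod4 had 32 to 105 counts a library and Tmod2 18 to 33.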
